A study of Mus musculus with 2 samples.

Results

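The miRNA genes Mir431, Mir433, Mir127, Mir434 and Mir136 lie on the plus strand of mouse chromosome 12, opposite the coding sequence of Rtl1. They were chosen by name, as 5 miRNA genes antisense to Rtl1, out of 2202 miRNA genes in the deposited count tables. A further annotated miRNA gene antisense to Rtl1, Mir432, was not among those chosen and had no counts in either library. Adrenal glands of female B6CASTF1/J mice gave the total RNA from which small RNA was sequenced. The mice are F1 hybrids of C57BL/6J and CAST/EiJ, aged 18 to 20 months. There was 1 group of 2 biological replicates, with no treatment, second age, second tissue or other genotype analysed here, so the measurements describe levels and the difference between the libraries. The labels describe the samples as separate females but enter both under the same donor record, and the spread below is the spread between these samples.

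Rtl1 is an imprinted gene derived from a retrotransposon, expressed from the paternal chromosome and needed in mouse placenta. The miRNAs on the other strand are made from the maternal chromosome, as part of the noncoding RNAs of the Dlk1-Dio3 imprinted region that also include Meg3 and Rian. A miRNA usually represses mRNAs through its seed, bases 2 to 8, but these pair with the Rtl1 mRNA along their whole length, and Argonaute can then cut the mRNA. The counts are per hairpin gene, so the 5p and 3p arms of a hairpin and the maternal and paternal alleles were not resolved.

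All 5 hairpins matched RefSeq entries on GRCm38.p6 (mm10), identical to the GENCODE M21 transcripts. The mature arms are shown because their sequences set the members apart from each other and join each of them to Rtl1. They are written 5′ to 3′ with the seed in capitals.
miR-431-5p: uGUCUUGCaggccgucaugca
miR-431-3p: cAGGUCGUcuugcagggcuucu
miR-433-5p: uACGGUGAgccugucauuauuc
miR-433-3p: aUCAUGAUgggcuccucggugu
miR-127-5p: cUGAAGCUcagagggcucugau
miR-127-3p: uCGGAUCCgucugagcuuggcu
miR-434-5p: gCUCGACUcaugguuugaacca
miR-434-3p: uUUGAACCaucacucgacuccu
miR-136-5p: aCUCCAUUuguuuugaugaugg
miR-136-3p: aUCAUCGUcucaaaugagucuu

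The 10 arms carried 10 different seeds, so no seed joined any of the members into a family. None of the 10 seeds occurred in a mature entry of another gene among the 1738 mature mouse entries of the RefSeq table. A seed found in no other gene was held by 68.0% of those entries. Between any pair of member hairpins the longest identical run was 7 bases. No hairpin of the 5 shared 18 bases on the same strand with another annotated miRNA gene, and no arm had an exact match in another miRNA hairpin. Among annotated miRNA hairpins, a read of at least 18 bases within a member therefore matched no other exactly on the same strand. Shorter reads and alignments with mismatches were not checked.

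Within 2 of the hairpins the arms resembled each other. The arms of Mir431 share a run of 10 bases and those of Mir434 a run of 9, against 4 or 5 in Mir433, Mir127 and Mir136. The repeats are shown with the shared run in capitals.
miR-431-5p: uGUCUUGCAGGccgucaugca
miR-431-3p: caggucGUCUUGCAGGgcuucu
miR-434-5p: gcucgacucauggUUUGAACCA
miR-434-3p: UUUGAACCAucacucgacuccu
In Mir434 the run covers the seed of the 3p arm and the 3′ end of the 5p arm. In Mir431 it covers the seed of the 5p arm and the middle of the 3p arm.

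Every arm was the exact reverse complement of a single stretch of the annotated Rtl1 transcript, and all 10 stretches lay in the coding sequence. The Rtl1 sites of the 3p arms are shown as DNA letters of the mRNA strand, 5′ to 3′, with the bases that pair with the seed in capitals.
Rtl1 site of miR-136-3p: aagactcatttgagACGATGAt
Rtl1 site of miR-434-3p: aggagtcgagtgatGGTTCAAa
Rtl1 site of miR-127-3p: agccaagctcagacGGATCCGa
Rtl1 site of miR-433-3p: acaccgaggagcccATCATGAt
Rtl1 site of miR-431-3p: agaagccctgcaagACGACCTg

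Along the Rtl1 mRNA the hairpins came in the order Mir136, Mir434, Mir127, Mir433, Mir431. The Mir136 hairpin lies opposite codons 6 to 26, just after the start codon, and the Mir434 hairpin opposite codons 269 to 300. Mir127 lies opposite codons 830 to 853, Mir433 opposite codons 1189 to 1230 and Mir431 opposite codons 1623 to 1653, near the end of the 5232 coding bases. On the chromosome the 5 hairpins span 4942 bases, with gaps of 727 to 1590 bases between neighbours.

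On mm10 with GENCODE M21, Mir431 (ENSMUSG00000070080.1) is at chr12:109590447-109590537 and Mir433 (ENSMUSG00000070072.1) at chr12:109591715-109591838. Mir127 (ENSMUSG00000070076.2) is at chr12:109592846-109592915, Mir434 (ENSMUSG00000070133.1) at chr12:109594506-109594599 and Mir136 (ENSMUSG00000104858.1) at chr12:109595327-109595388. All are on the plus strand, and Rtl1 (chr12:109589193-109600330) is on the minus strand. The hairpins are 62 to 124 bases long. Their GC content ran from 40.3% in Mir136 and 45.7% in Mir434 to 56.5% in Mir433, 57.1% in Mir127 and 60.4% in Mir431, beside a median of 51.7% over all RefSeq mouse hairpins. The folding energy computed from the sequence was lowest per base for Mir127 (-0.50 kcal/mol per base, -35.1 in all) and highest for Mir433 (-0.36 per base, -44.8 in all).

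The Mir127 hairpin, from which most of the members' reads came, is shown with its annotated mature arms in capitals.
Mir127 hairpin: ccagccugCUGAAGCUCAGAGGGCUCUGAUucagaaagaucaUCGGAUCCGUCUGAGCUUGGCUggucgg

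**Figure D1:**
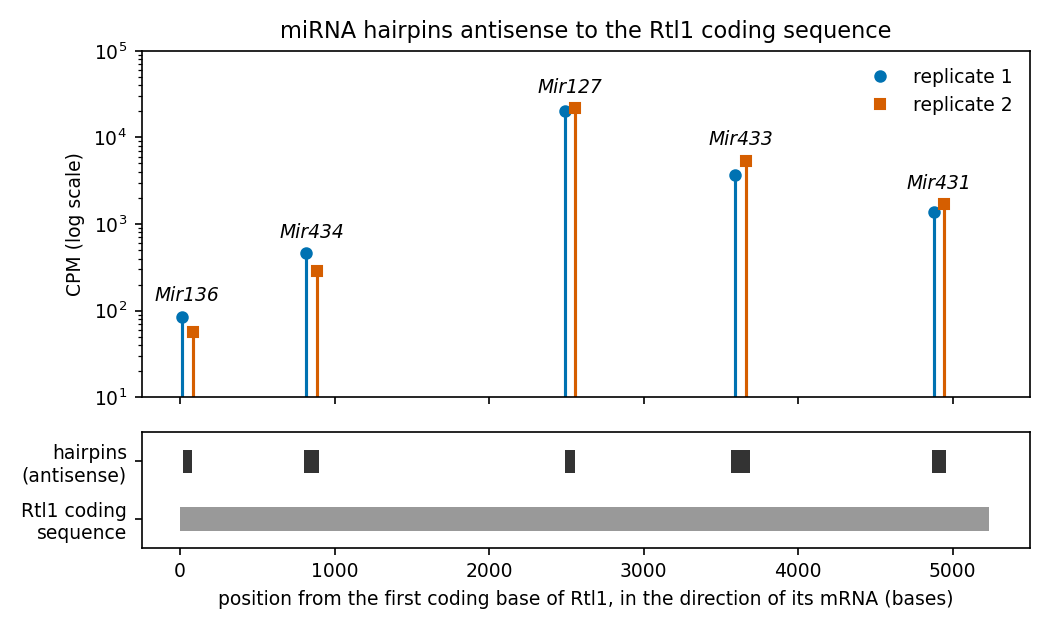
Level of each hairpin gene in CPM (log scale) in both libraries, drawn at its position in bases from the first coding base of Rtl1; the lower panel shows the hairpins against the coding sequence. Mir127, near the middle, reached 20393 and 21681 CPM, and Mir136, at the start, reached 85.7 and 56.3 CPM.

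The libraries held 2590051 and 2291030 own-strand counts in miRNA genes, and CPM are counts per 1000000 of these. Reads aligned to several places, 2357429 in replicate 1 and 1958627 in replicate 2, are in no gene's count. Shares, CPM and ranks leave them out, so miRNAs with duplicated sequences may stand too low beside the members, which was not tested. Endocrine miRNAs (Mir375 and Mir7b) summed to 65782 and 56378 CPM in replicates 1 and 2. The messenger RNAs that define adrenal cells are not in a small RNA library. In whole tissue, fewer cells of a type and less RNA per cell cannot be told apart. The mature arms are 21 or 22 bases long, so counts of different members were set side by side without dividing by length. Ligation and amplification can favour some sequences in small RNA libraries, and their part in the differences between members was not tested.

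The 5 genes together held 67323 counts in replicate 1 and 66655 in replicate 2. Replicate 1 thus had 2.60% of its own-strand counts in them (Wilson 95% interval 2.58 to 2.62), and replicate 2 had 2.91% (2.89 to 2.93). The mean was 2.75% ± 0.219 (SD, n = 2). Without Mir127 the other 4 held 0.560% and 0.741%, a mean of 0.651% ± 0.128 (SD, n = 2). All 5 had at least 10 counts in both libraries, which 339 of the 2202 genes had, so no member was lost to a filter on low counts.

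Mir127, known in mouse for restraining Rtl1 in the placental labyrinth, was the most abundant of the 5. It had 52818 counts in replicate 1 and 49672 in replicate 2, or 20393 and 21681 CPM, a mean of 21037 ± 911 CPM (SD, n = 2). By these counts, which leave out reads aligned to several places, it ranked 14 among all miRNA genes in each library. Its share of the members' counts was 78.5% (Wilson 95% interval 78.1 to 78.8) in the first library and 74.5% (74.2 to 74.9) in the second, on average 76.5% ± 2.78 (SD, n = 2).

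Mir433 was next, with 9486 and 12342 counts, or 3662 and 5387 CPM and a mean of 4525 ± 1219 CPM (SD, n = 2). Its rank was 38 in replicate 1 and 33 in replicate 2, and its value was the higher of the pair in replicate 2. It held 14.1% and 18.5% of the members' counts. Mir431, studied in mouse muscle stem cells as a repressor of Pax7, had 3602 and 3852 counts. These were 1391 and 1681 CPM, a mean of 1536 ± 206 CPM (SD, n = 2), at ranks 66 and 62. Its share of the members' counts was 5.35% and 5.78%.

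Mir434 and Mir136 were the low members, and both had their higher value in replicate 1. Mir434 had 1195 counts in replicate 1 and 660 in replicate 2, or 461 and 288 CPM and a mean of 375 ± 123 CPM (SD, n = 2). Mir136 had 222 and 129 counts, or 85.7 CPM (Wilson 95% interval 75.2 to 97.8) and 56.3 CPM (47.4 to 66.9), a mean of 71.0 ± 20.8 CPM (SD, n = 2). Its ranks were 195 and 207, while those of Mir434 were 116 and 125. Mir434 gave 1.78% and 0.990% of the members' counts and Mir136 gave 0.330% and 0.194%.

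**Figure D2:**
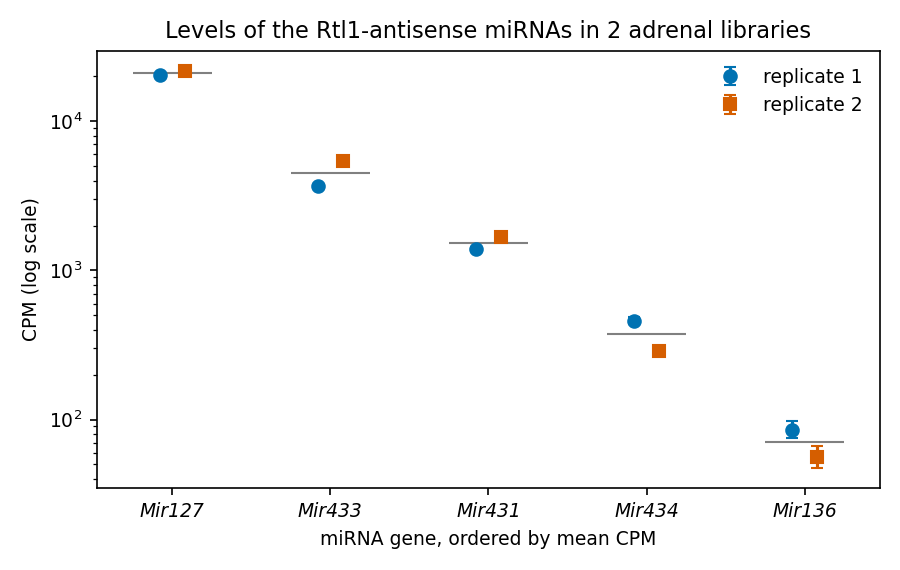
CPM of the 5 genes (log scale) in replicate 1 (circles) and replicate 2 (squares), ordered by mean; the bars are Wilson 95% intervals for counting error and the grey lines the means. The order was the same in both libraries, and no gene's range reached that of the next: the lower Mir433 value of 3662 CPM lay above the higher Mir431 value of 1681 CPM.

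The order Mir127, Mir433, Mir431, Mir434, Mir136 held in both libraries, and the values of neighbours in it did not overlap. Mir127 exceeded Mir433 5.57-fold in replicate 1 (exact 95% interval 5.45 to 5.69) and 4.02-fold in replicate 2 (3.95 to 4.11). Mir433 exceeded Mir431 2.63-fold and 3.20-fold. Mir431 exceeded Mir434 3.01-fold in replicate 1 (2.82 to 3.22) and 5.84-fold in replicate 2 (5.37 to 6.35), the neighbouring pair whose ratio moved most between the libraries, by 1.94 times. Mir434 exceeded Mir136 5.38-fold and 5.12-fold, and the intervals of these ratios overlap. From top to bottom the range was 238-fold in replicate 1 (209 to 273) and 385-fold in replicate 2 (324 to 461). With 2 libraries these intervals cover counting error in each library only.

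The members can also be followed by their ratio between the libraries, each given as log2 of replicate 2 over replicate 1 after TMM scaling. The 3 members at the start of the cluster on the plus strand had positive ratios and the other 2 had negative ones. The sign for Mir127 depended on the scaling, as given below, and a link between ratio and position was not tested. Mir431 had a ratio of 0.31 (exact 95% interval 0.25 to 0.38), Mir433 of 0.59 (0.56 to 0.63) and Mir127 of 0.13 (0.11 to 0.14). Mir434 had a ratio of -0.64 (-0.78 to -0.50) and Mir136 of -0.57 (-0.89 to -0.25). In fold terms Mir433 was 1.51-fold higher in replicate 2, and Mir434 and Mir136 were 1.56-fold and 1.48-fold higher in replicate 1.

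All 5 differed in a two-sided exact conditional binomial test of reads, with p adjusted by Benjamini-Hochberg over 367 miRNAs. The adjusted p in this exact test was 7.93e-201 for Mir433, 1.70e-43 for Mir127, 5.23e-20 for Mir431, 4.19e-20 for Mir434 and 6.72e-04 for Mir136. Counting error is the only spread in this comparison of 1 library with another, and the test called 62.7% of all tested miRNAs at an adjusted p of 0.05. Among the 204 miRNAs with at least as many counts as Mir136, it called 81.9%, so a call was the common outcome at the members' depth. Higher in replicate 2 were 30.2% of the tested miRNAs and 3 members, and higher in replicate 1 were 32.4% and 2 members. The median ratio was 0.13 over the members and 0.02 over all tested miRNAs, and the median size without sign was 0.57 and 0.46.

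The small ratio of Mir127 depended on the scaling. With TMM factors taken from all miRNA genes in place of those with a summed count of at least 20, it was -0.01 (exact binomial test, adjusted p = 0.541). That scaling lowered the median of all tested miRNAs by 0.13, and its calls were 85 higher in replicate 2 and 139 higher in replicate 1, against 111 and 119. The other 4 members kept their direction and their call under each of the 3 other scalings. When edgeR's common dispersion was added to the spread (a biological coefficient of variation of 0.432), none of the 5 passed in edgeR's exact test, with adjusted p of 1 for each and 0 of 5 at an unadjusted p under 0.05. That test called 1.36% of all tested miRNAs. Its dispersion came from the same 2 libraries and holds their differences.

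Some miRNAs of other cell types also differed between these libraries. The striated muscle miRNAs Mir208a, Mir208b, Mir499 and Mir206 summed to 597 CPM in replicate 1 and 81.2 CPM in replicate 2, where Mir208a was at 0. Only 1 of the 4 had at least 10 counts in both libraries. The endothelial Mir126a was at 64752 and 33412 CPM and the erythroid Mir451a and Mir144 summed to 831 and 409 CPM. Epithelial miRNAs, 4 in the list and 3 of them detected, summed to 1182 and 1857 CPM, and the liver miRNA Mir122 was at 622 and 702 CPM. Their part in the ratios of the members was not tested.

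**Figure D3:**
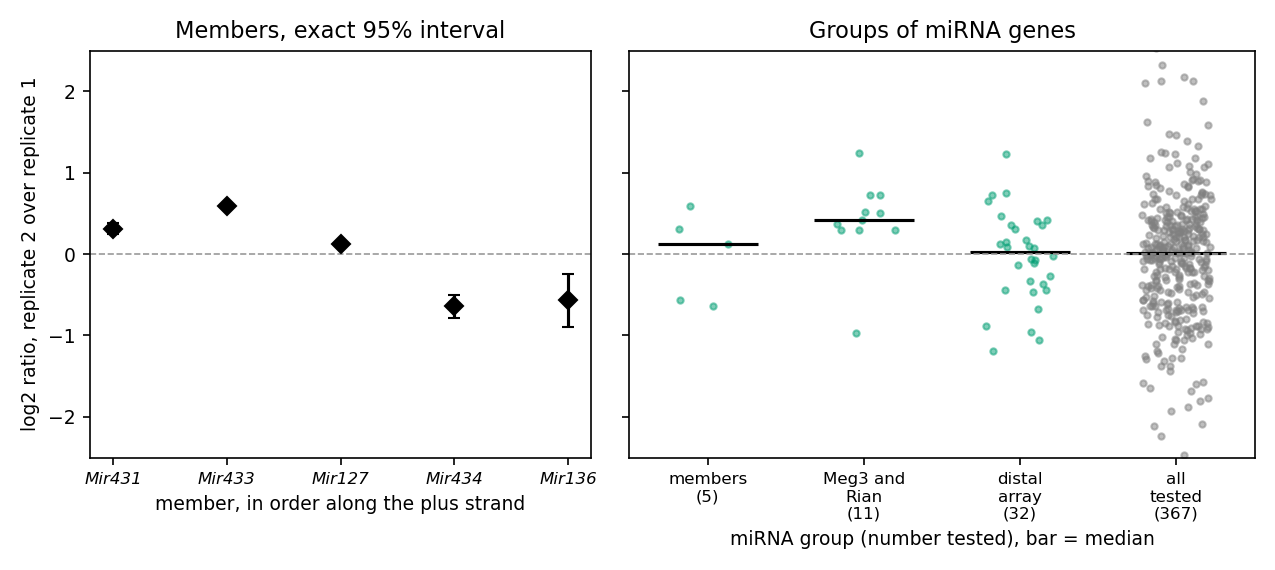
Log2 ratio of replicate 2 over replicate 1 for the members in chromosome order, with exact 95% intervals (left), and for the members, the other 2 miRNA groups of the region and all 367 tested miRNAs, with medians as bars (right); 14 tested miRNAs lie beyond the axis limits of 2.5. Mir431, Mir433 and Mir127 lie above 0 and Mir434 and Mir136 below it, within the range of the other miRNAs. The sign for Mir127 depended on the scaling.

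On the plus strand from Mir770 to Mir410, the region holds 57 annotated miRNA genes. The 5 members made up 46.3% of the region's counts (Wilson 95% interval 46.0 to 46.5) in the first library and 49.0% (48.7 to 49.3) in the second, on average 47.6% ± 1.93 (SD, n = 2). Mir127 alone held 36.3% and 36.5% of them, a mean of 36.4% ± 0.148 (SD, n = 2), so its share of the region varied less between the libraries than its share of the members' counts. It ranked first in the region in both libraries, Mir431 ranked 7 in both, and Mir433 moved from 5 to 2. Mir434 ranked 17 and 23, and Mir136 ranked 32 and 35.

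The distal array from Mir379 to Mir410, with 38 genes of which 32 were detected, held 44.8% ± 3.11 of the region's counts (SD, n = 2). The 13 other genes from Mir770 to Mir370, here called the Meg3 and Rian group and including Mir432, held 7.53% ± 1.18 (SD, n = 2), with 11 detected. The remaining gene of the region had no counts. The leading genes of the distal array were Mir379 at 5319 ± 1236 CPM, Mir411 at 5115 ± 923 CPM and Mir541 at 4433 ± 688 CPM (SD, n = 2 each), close to the level of Mir433. In the Meg3 and Rian group they were Mir770 at 969 ± 121, Mir337 at 922 ± 212 and Mir540 at 905 ± 146 CPM (SD, n = 2 each), below Mir431. The median level of the detected genes was 1536 CPM over the members, 188 CPM over the distal array and 155 CPM over the Meg3 and Rian group, against 134 CPM over all detected miRNAs. These medians are descriptions, and the groups' levels were not tested against each other.

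Ratios of both signs were also found in the other groups of the region. In the distal array 11 of 32 tested genes were higher in replicate 2, 9 were higher in replicate 1 and 12 did not pass the exact binomial test, with a median ratio of 0.03. The ratio of Mir379 was -0.44, that of Mir411 -0.33 and that of Mir541 0.36. In the Meg3 and Rian group the median ratio was 0.42, with 8 of 11 tested genes higher in replicate 2, among them Mir770, Mir337 and Mir540 at ratios of 0.29, 0.51 and 0.37. These 3 lie before Mir431 on the plus strand. The gene of this group that was higher in replicate 1 was Mir665, which lies between Mir540 and Mir431 and had a ratio of -0.97. It was named after its values were seen. Whether the groups differ in their ratios was not tested.

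**Figure D4:**
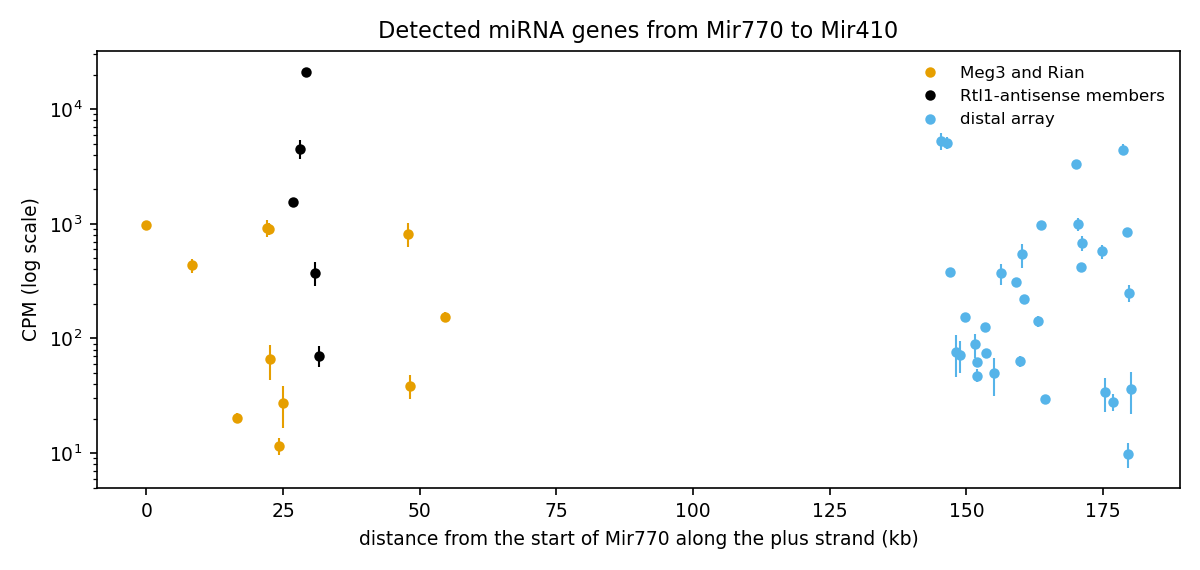
Mean CPM (log scale) of each detected miRNA gene from Mir770 to Mir410, against distance in kb from the start of Mir770; the vertical lines join the values of the 2 libraries. The 5 members (black) span 71.0 to 21037 CPM over a short stretch, and Mir127 stands above the leading gene of the distal array, Mir379 at 5319 CPM.

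Rtl1 contains 2 further annotated miRNA genes. Mir432, on the plus strand between Mir434 and Mir136, had no counts in either library, which allows up to 1.16 CPM in replicate 1 and 1.31 CPM in replicate 2. Mir3071 lies on the minus strand, the strand of Rtl1, and the Mir136 hairpin is contained in it. It had 1 count in replicate 1 and 0 in replicate 2, against 222 and 129 for Mir136, so the reads at this place came almost entirely from the antisense strand.

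Reads on the strand of Rtl1 were scarce at the other members as well. Only small RNA was sequenced, so these counts do not measure the Rtl1 mRNA. Mir127 had 1 and 2 opposite-strand counts beside 52818 and 49672 on its own strand. Mir431, Mir433 and Mir434 had none in either library. When strand is ignored, reads in the overlap of Mir136 and Mir3071 belong to both genes, and Mir136 was listed at 0 in both libraries. The values of Mir431, Mir433 and Mir434 were the same with strand ignored, and those of Mir127 rose by its 1 and 2 opposite-strand counts. In the region 7 genes with at least 20 counts kept less than 10% of them when strand was ignored, Mir136 among them.

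The detected miRNA genes nearest to Mir127 by Euclidean distance of log2(CPM + 1) over the 2 libraries were Mir26b, Mir10b and Mir143. Mir26b, on chromosome 1, was at 18538 and 23082 CPM, a distance of 0.16. Mir10b, on chromosome 2, was at 16633 and 23506 CPM, a distance of 0.32. Mir143, on chromosome 18, was at 27092 and 17510 CPM, a distance of 0.51. With 2 libraries this measure reflects the level more than any pattern.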

How the data were processed

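The authors deposited raw counts of reads per miRNA gene for each library, in 3 columns: strand ignored, own strand and opposite strand. The strand meaning was read from the values. The build was mm10 and the annotation GENCODE M21, per the deposited notes. The aligner, the counter and the trimming were not given in the sources used. Reads differing from mm10 at CAST/EiJ alleles may be missing, which was not tested.

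The first 4 rows name no gene and were left out of library sizes. In replicates 1 and 2, unmapped reads were 40.6% and 29.8% of the table, reads aligned to several places 24.0% and 28.0%, and reads in no gene 8.94% and 9.44%. All 2202 identifiers matched GENCODE M21. Mature and hairpin sequences are from RefSeq on GRCm38.p6, and the Rtl1 transcript from GENCODE M21. Folding energies came from RNAfold 2.7.2.

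TMM factors (edgeR 4.0.16, R 4.3.3), 1.01 and 0.987, were taken from miRNAs whose counts summed to at least 20. Those miRNAs were tested with the exact conditional binomial test (scipy 1.17.1, Python 3.11.15) with a prior count of 0.5 in ratios. The test was checked on simulated data that held counting error only, so the check does not cover spread between samples. Intervals and limits at a count of 0 (3 counts) cover no more than counting error, and reads copied by PCR are not independent. Alternatives were DESeq2 1.42.0 size factors, totals, other minimum counts, prior counts and denominators, strand ignored, edgeR's exact test, and leaving out a replicate.

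The named genes were the 5 members, miRNA genes overlapping them on the other strand, the 3 highest genes of each other group of the region and the 3 nearest to Mir127. Mir432 and Mir665 were added after its counts were seen. The members and lists were chosen with earlier results of these data known.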

Additional observations from a re-analysis of the deposited data

How the results depend on the processing

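With 2 libraries of 1 group, a difference between them has no replicate check, and the intervals hold counting error only. No paired analysis was possible because the labels give a single group. The members' share of counts ranged from 2.60% to 2.91% when either replicate was left out, Mir127's share of the members' counts from 74.5% to 78.5% and the members' share of the region from 46.3% to 49.0%. With strand ignored the members held 3.16% of counts and 50.0% of the region's counts, since other genes lose reads to overlapping genes. Over all reads that are not unmapped the members held 1.26%. With edgeR's exact test and common dispersion, 0 members and 5 miRNAs in all passed, against 5 and 230. Under DESeq2 size factors, totals, strand ignored, no minimum and a minimum of 200 counts, 180 to 228 miRNAs passed. The number tested changed with strand ignored and with the minimum count. All 5 members passed in each but strand ignored, where Mir136 could not be tested and 4 of 4 passed. In the main test 62.7% of all 367 tested miRNAs passed, and 81.9% of the 204 with at least as many counts as Mir136. Passing was thus common at the members' depth. With TMM factors from all miRNA genes, an alternative chosen after seeing the data, the ratio of Mir127 was -0.0068. The ratio of Mir136 has no value with strand ignored, where it has no counts.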
